A study of Mus musculus with 2 samples.

Results

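The 38 genes described here encode the chaperones and stress regulators of the heat shock response and the unfolded protein response. They were picked by gene symbol, and all 38 were present among the 53717 features listed for both libraries. By role they were grouped as 18 cytosolic chaperones and co-chaperones, 14 proteins of the endoplasmic reticulum (ER), 3 mitochondrial chaperones and 3 regulators of the stress response (Atf4, Ddit3 and Trib3). The study took hippocampi from 5xFAD mice, a transgenic line that carries human disease mutations and builds up amyloid plaques, and both groups were of this strain, with a labelled time of 6 months. The NeuroD1 group received AAV9-GFAP::NeuroD1-P2A-GFP, a viral vector in which the GFAP promoter, active mainly in astrocytes, drives the neurogenic factor NeuroD1 together with GFP. The control group received AAV9-GFAP::GFP, the same vector type without NeuroD1, and tissue of 3 mice per group was taken 3 weeks after injection and dissociated with papain. Each group is 1 library, with no map from cells to mice, so the data hold no spread between animals. Every interval below is a 95% interval that covers counting error only, and no p-value is given.

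Cytosolic chaperones keep proteins folded in the cytosol. When unfolded protein builds up there, heat shock factor 1 binds heat shock elements and switches on inducible chaperones such as Hspa1a, Dnajb1 and Hspb1, while family members such as Hspa8 and Hsp90ab1 are made all the time. Unfolded protein in the ER is sensed by other proteins, whose transcription factors bind ER stress response elements in front of genes such as Hspa5 and Calr, and the kinase PERK acts through Atf4 and Ddit3. In brain dissociated by enzymes, the inducible chaperones and the immediate early genes are also known to rise during preparation of the cells.

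Promoter sequences show how the groups differ in the DNA before their start sites. RefSeq windows of 300 bases, from 250 bases before to 50 bases after the transcription start on build GRCm38.p6, were found for 32 of the 38 genes. The 7 windows printed here, 5′ to 3′ on the strand of the gene, belong to some of the genes described below with class values. Hspa1a lies at chr17:34972107-34972406, minus strand, and Hspa1b at chr17:34959189-34959488, minus strand. Hspb1 lies at chr5:135887669-135887968, plus strand, and Hspe1 at chr1:55087898-55088197, plus strand. The ER genes are Hspa5 at chr2:34771840-34772139, plus strand, Calr at chr8:84846882-84847181, minus strand, and Herpud1 at chr8:94386179-94386478, plus strand. In the first 4 windows capitals mark paired heat shock units (GAANNTTC or TTCNNGAA). In the last 3 they mark each CCAAT box, each CCACG and whole ER stress elements with the spacer included, on either strand.
Hspa1a: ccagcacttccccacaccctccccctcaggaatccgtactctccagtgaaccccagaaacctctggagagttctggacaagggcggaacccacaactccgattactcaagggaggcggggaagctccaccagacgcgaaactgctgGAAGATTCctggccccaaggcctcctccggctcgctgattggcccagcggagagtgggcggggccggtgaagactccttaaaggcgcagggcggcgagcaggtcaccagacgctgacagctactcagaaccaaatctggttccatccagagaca
Hspa1b: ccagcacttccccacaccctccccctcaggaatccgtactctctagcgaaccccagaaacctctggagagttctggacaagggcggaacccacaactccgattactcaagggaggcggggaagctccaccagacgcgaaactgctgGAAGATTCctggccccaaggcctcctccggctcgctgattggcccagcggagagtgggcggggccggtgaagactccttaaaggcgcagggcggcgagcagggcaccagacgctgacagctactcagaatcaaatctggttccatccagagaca
Hspb1: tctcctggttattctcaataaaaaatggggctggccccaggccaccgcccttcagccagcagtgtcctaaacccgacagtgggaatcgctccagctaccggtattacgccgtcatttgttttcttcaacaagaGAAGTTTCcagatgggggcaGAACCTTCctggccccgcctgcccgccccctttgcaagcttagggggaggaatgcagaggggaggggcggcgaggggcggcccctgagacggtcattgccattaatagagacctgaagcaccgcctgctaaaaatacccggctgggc
Hspe1: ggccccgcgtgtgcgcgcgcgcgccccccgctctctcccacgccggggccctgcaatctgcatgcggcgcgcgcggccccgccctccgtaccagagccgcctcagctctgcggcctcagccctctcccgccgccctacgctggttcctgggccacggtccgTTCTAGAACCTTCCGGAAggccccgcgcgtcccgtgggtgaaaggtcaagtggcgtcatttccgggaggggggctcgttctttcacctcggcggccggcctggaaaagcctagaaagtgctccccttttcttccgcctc
Hspa5: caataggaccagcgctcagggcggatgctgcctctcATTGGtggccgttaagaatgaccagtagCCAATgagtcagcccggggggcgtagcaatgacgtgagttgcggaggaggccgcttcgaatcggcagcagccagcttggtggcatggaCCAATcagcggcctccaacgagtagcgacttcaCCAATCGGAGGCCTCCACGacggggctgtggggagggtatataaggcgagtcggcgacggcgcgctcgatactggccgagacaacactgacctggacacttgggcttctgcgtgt
Calr: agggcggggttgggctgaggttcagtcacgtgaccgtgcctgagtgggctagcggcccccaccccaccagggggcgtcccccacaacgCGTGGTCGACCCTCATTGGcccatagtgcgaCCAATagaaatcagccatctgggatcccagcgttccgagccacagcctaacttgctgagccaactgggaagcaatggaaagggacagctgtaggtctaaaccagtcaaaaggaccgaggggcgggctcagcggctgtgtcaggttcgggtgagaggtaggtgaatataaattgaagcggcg
Herpud1: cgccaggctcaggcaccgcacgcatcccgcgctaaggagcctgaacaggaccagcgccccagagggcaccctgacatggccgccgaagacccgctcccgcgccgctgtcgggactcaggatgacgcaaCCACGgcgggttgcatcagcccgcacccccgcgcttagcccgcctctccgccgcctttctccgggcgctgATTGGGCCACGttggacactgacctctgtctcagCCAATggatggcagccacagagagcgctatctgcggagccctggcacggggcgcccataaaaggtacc

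Both strands were searched, and a match describes letters, not a bound site. The 2 heat shock units head to head (GAANNTTC) were in 9 of the 15 cytosolic genes with a window, among them Hspa1a, Hspa1b and Hspb1, and in both mitochondrial genes with one (Hspd1 and Hspe1). They were in 0 of the 12 ER genes with a window, against 9.04% of all 27025 genes with a window. The element with 3 units joins both shorter forms with 2 free bases between units. It was in Hsph1, Dnajb6, Chordc1, Hspd1 and Hspe1, and in 0.662% of all genes. Hspd1 and Hspe1 start on opposite strands and their windows share 285 bases, so they are not separate cases. The 2 windows of Dnajb1 held none of the heat shock forms searched. The ER stress response element, a CCAAT box with CCACG 9 bases further on, was in 7 of the 12 ER genes (Hspa5, Hsp90b1, Calr, Canx, Pdia6, Dnajc3 and Creld2). This element was in 0 of the 15 cytosolic genes and in 0.137% of all genes. Its shorter relative, the reversed box ATTGG with CCACG 1 base further on, was in Herpud1 and in 0.0444% of all genes. Hspa1a and Hspa1b had the same base at 296 of 300 positions, so they are not separate cases either. These are close copies whose coding parts are also nearly alike, so the counting could divide reads between them, and their separate values are uncertain.

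After filters, 12784 NeuroD1 and 11082 GFP cells remained, with a median of 2554 and 1169 unique molecular identifiers (UMIs, each a counted RNA molecule) per cell. The libraries also differed in the RNA of Ttr, a gene of the choroid plexus (12.97% and 2.24% of UMIs), in haemoglobin RNA (0.461% and 0.00108%) and in sex-linked RNA: Xist was at 0.0413 and 102.9 CPM (a gene's UMIs scaled to a common total per library), and Ddx3y at 69.5 and 0.0618 CPM. Vector, sex, depth and preparation cannot be told apart in this design. Cells were clustered without the 38 genes, and clusters were called X-like from marker genes. Of 14 named classes, 9 had at least 100 cells in each library and were compared: astrocyte-like, oligodendrocyte-like, microglia-like, border macrophage or monocyte-like, endothelial cell-like, pericyte-like, smooth muscle cell-like, choroid plexus epithelium-like and neuron-like cells. The libraries shared 91 cell barcodes among the kept cells. Levels below are CPM of the summed UMIs of a class, not divided by transcript length, so a gene is set beside itself in other cells and not beside other genes. In these sums, fewer expressing cells and less RNA per cell cannot be told apart.

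A few cytosolic chaperones had the widest ranges between classes. Between the highest and the lowest of the 9 classes, the median cytosolic gene differed 6.04-fold and 3.97-fold (NeuroD1 and GFP library), and the median ER gene 3.25-fold and 3.04-fold. The extremes were Hspb1, with a range of 171.9-fold and 226.5-fold, and Hspa1a, with 171.3-fold and 64.7-fold. Their lowest levels lay below an estimate of free RNA from other cells, described below, so the size of these ranges is uncertain. Hspb1 was at 20.6 and 22.8 CPM in oligodendrocyte-like cells, against an estimate of 43.9 and 31.1 CPM. Hspa1a was lowest in astrocyte-like cells, at 57.5 and 115.5 CPM against 166.3 and 146.6 CPM. Among ER genes the widest range was that of Sdf2l1, a cofactor of the chaperone BiP, 13.9-fold and 20.3-fold. It went from 202.6 and 286.5 CPM in microglia-like cells to 14.6 and 14.1 CPM in smooth muscle cell-like cells. The latter levels rest on 10 and 4 UMIs.

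**Figure D1:**
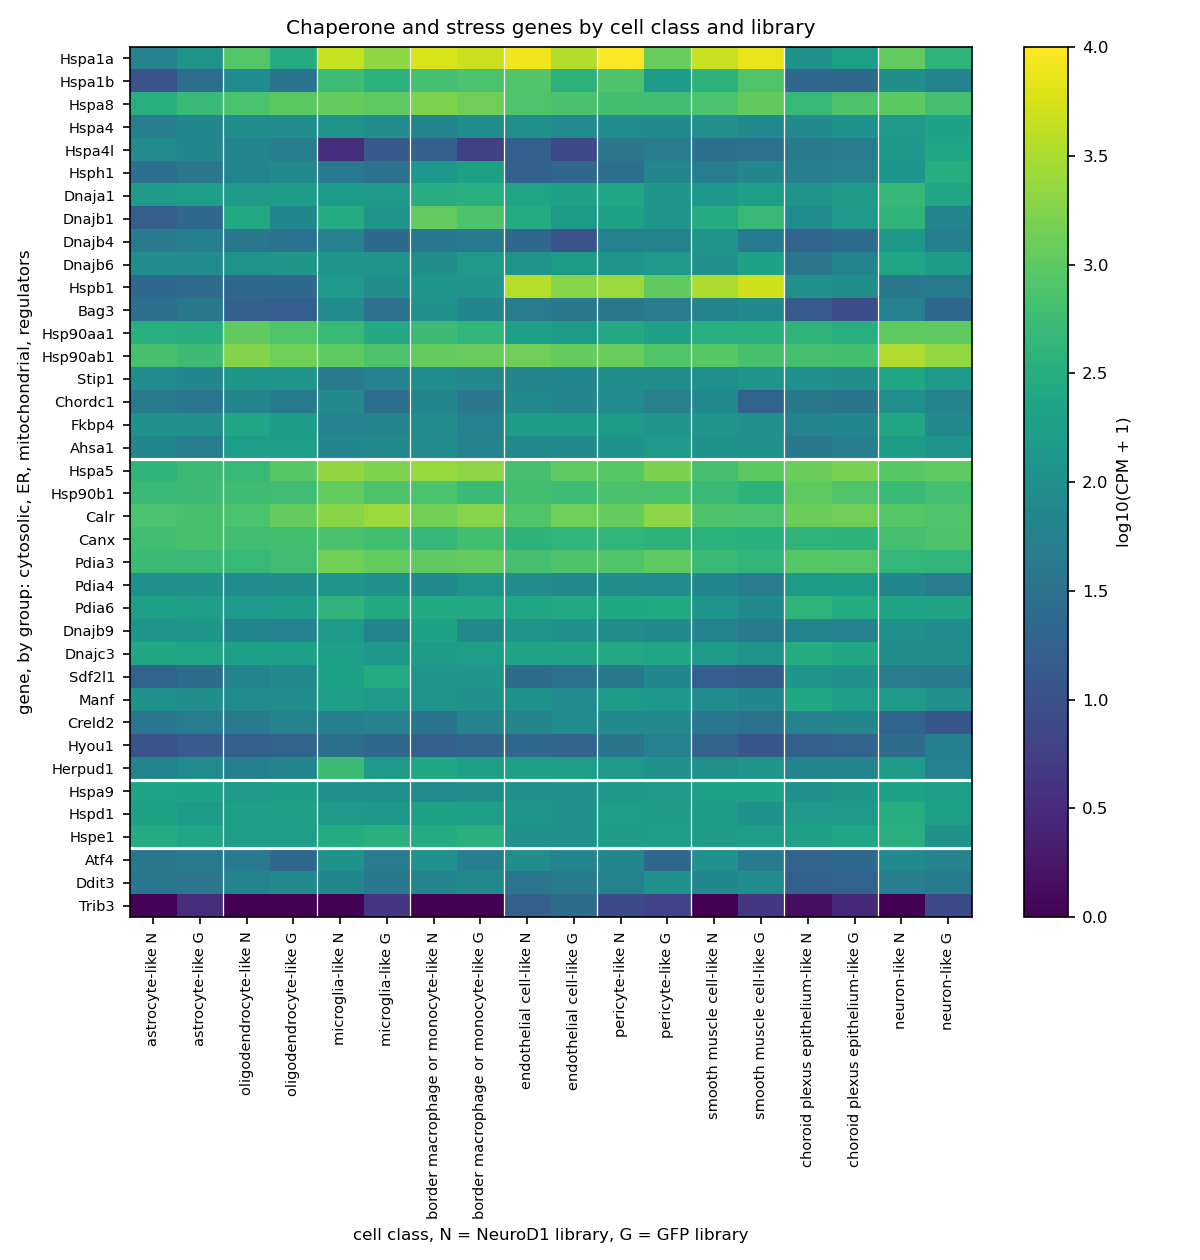
Colour gives log10(CPM + 1) of each of the 38 genes (rows, divided by white lines into cytosolic, ER, mitochondrial and regulator genes) in the 9 classes (columns, NeuroD1 library left, GFP library right). Hspb1 stands out in endothelial cell-like, pericyte-like and smooth muscle cell-like cells, and Hspa1a in those and in microglia-like and border macrophage or monocyte-like cells.

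Set against each other as sums, the balance of the groups also split by class. The summed cytosolic genes were at 16263 CPM and the ER genes at 4180 CPM in endothelial cell-like cells of the NeuroD1 library, a ratio of 3.89, and at 8802 and 5102 CPM in the GFP library, a ratio of 1.73. Smooth muscle cell-like cells had ratios of 3.30 and 4.98. The ratio is set between classes only, since CPM is not per length. Astrocyte-like cells had 0.604 and 0.606, and choroid plexus epithelium-like cells 0.395 and 0.471. Pericyte-like cells had 3.19 for NeuroD1, near the endothelial cell-like ratio, and 0.738 for GFP, nearer the astrocyte-like one. Hspa1a alone held 60.1% and 23.0% of the cytosolic UMIs there, against 2.58% and 4.94% in astrocyte-like cells. Without Hspa1a, Hspa1b and Hspb1 the ratio in pericyte-like cells was 0.639 and 0.393, and in endothelial cell-like cells 0.848 and 0.598.

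To compare the libraries, a gene was counted as higher or lower in the NeuroD1 library when its CPM ratio passed 1.5-fold and the interval excluded 1, among genes whose 2 sums added up to 20 or more UMIs. Of 342 gene and class pairs 329 had that many, of which 44 were higher and 25 lower. The cytosolic genes gave 32 higher and 17 lower of 161 pairs, and the ER genes 4 higher and 7 lower of 122. No share of all genes was pooled over classes. By class, 2.21% to 31.1% of all tested genes were higher and 7.67% to 20.7% lower, so counts are set beside these shares below. Of the 38 genes, 13 passed in no class: Hsp90ab1, Ahsa1, Hspa9 and 10 ER genes. The share of all genes that passed in no class was not counted.

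The median log2 ratio of the cytosolic genes was 0.189 in pericyte-like, 0.240 in endothelial cell-like and 0.193 in oligodendrocyte-like cells. That of the ER genes was -0.069, -0.065 and -0.140, and that of all genes tested 0.050, 0.158 and 0.027. Smooth muscle cell-like cells had -0.391 for cytosolic and 0.317 for ER genes, against 0.036 for all genes. With called doublets kept, the endothelial cell-like cytosolic median went from 0.24 to -0.052 on the log2 scale. In pericyte-like cells 5 cytosolic genes were higher and 1 lower, with 2 ER genes lower, where 9.25% of all tested genes were higher and 8.02% lower. Endothelial cell-like cells had 6 cytosolic genes higher and 2 ER genes lower, against 13.8% and 8.55% of all genes. For oligodendrocyte-like cells the counts were 3 cytosolic genes higher and 2 ER genes lower, against 8.23% and 11.9%. Smooth muscle cell-like cells had 2 cytosolic genes higher, 5 lower and 1 ER gene lower, against 7.54% and 7.67%.

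Microglia-like cells had 7 cytosolic and 2 ER genes higher and 1 cytosolic gene lower, where 31.1% of all genes were higher and 13.7% lower. Neuron-like cells had 9 cytosolic genes higher and 2 lower and 1 ER gene higher, against 24.6% and 18.8%. In border macrophage or monocyte-like cells 0 of 17 cytosolic genes and 1 of 13 ER genes were past the limit, against 7.08% higher and 9.63% lower. Astrocyte-like cells had 3 cytosolic genes lower and 0 ER genes past the limit, against 5.85% higher and 20.7% lower. In choroid plexus epithelium-like cells 5 cytosolic genes were lower, against 2.21% higher and 20.1% lower, and the median of all genes there was -0.35 on the log2 scale. That median moved to -0.03 when Ttr, mitochondrial, ribosomal, haemoglobin and vector UMIs were left out of the total, and the median of the cytosolic genes went from -0.16 to 0.16.

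**Figure D2:**
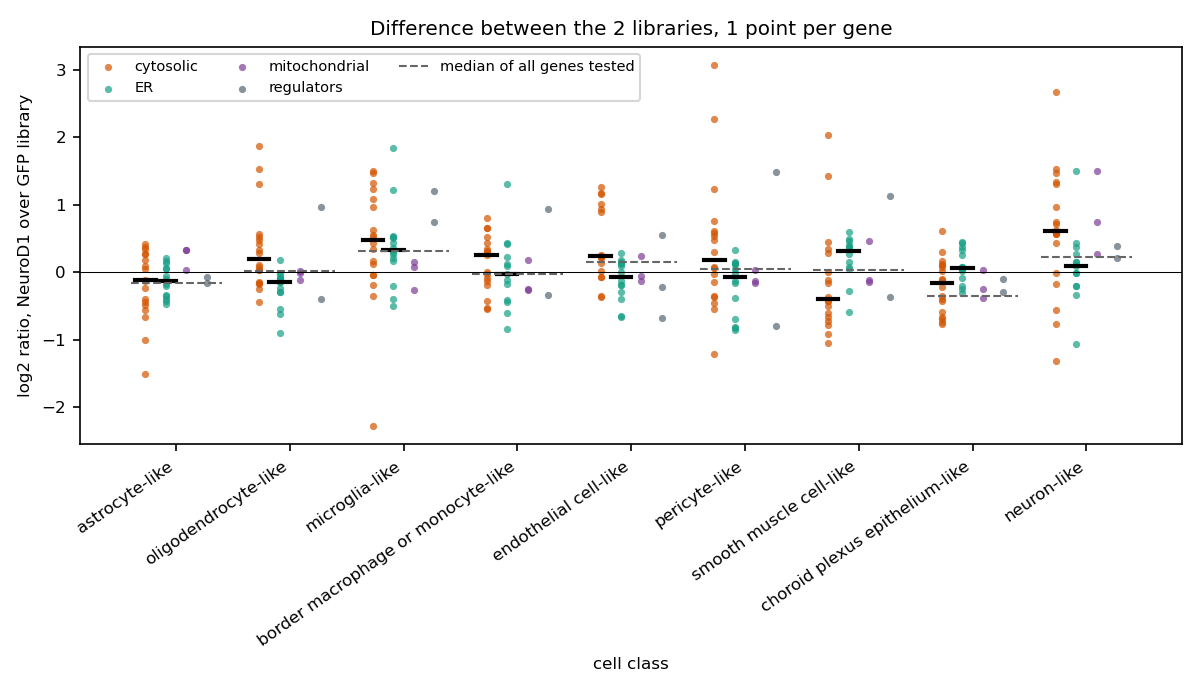
Each point is 1 gene with at least 20 UMIs, placed by its log2 ratio (NeuroD1 over GFP library) and coloured by group in the 9 classes. Black bars are the medians of the cytosolic and the ER genes and dashed lines the median of all genes tested. The cytosolic median is below the ER median in smooth muscle cell-like and choroid plexus epithelium-like cells (-0.16 and 0.07 in the latter) and above it in the other 7 classes, by least in astrocyte-like cells (-0.12 and -0.13).

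Hspa1a encodes the inducible cytosolic HSP70. Its level was 57.5 and 115.5 CPM (NeuroD1 and GFP library) in astrocyte-like, 113.9 and 180.7 in choroid plexus epithelium-like, 851.0 and 294.4 in oligodendrocyte-like and 1110 and 397.4 in neuron-like cells. It was 4464 and 2112 CPM in microglia-like, 4546 and 7468 in smooth muscle cell-like and 5964 and 4768 in border macrophage or monocyte-like cells. In endothelial cell-like cells it reached 8343 and 3473 CPM, and in pericyte-like cells 9850 and 1168. Among the 9 classes, the 3 vascular ones, microglia-like and border macrophage or monocyte-like cells were thus above the other 4 in both libraries. Pericyte-like cells had the highest level in the NeuroD1 library and stood below 4 other classes in the GFP library. The ratio of the libraries in pericyte-like cells was 8.43 (7.37 to 9.70, from 12962 and 215 UMIs). In the pericyte-like cluster that both libraries filled (564 and 268 cells) it was 10.2 (8.87 to 11.8), with 11606 and 1138 CPM. Across 13 other ways of processing the cells, the log2 ratio lay between 2.37 and 3.41. Pericyte-like cells of the NeuroD1 library also held more RNA of the endothelial marker Cldn5, given below, and its part was not tested.

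The other classes gave smaller ratios for Hspa1a, and in some the ratio differed by cluster. Oligodendrocyte-like cells had a ratio of 2.89 (2.71 to 3.09), and 3.40 and 2.63 within the 2 clusters that both libraries filled. In choroid plexus epithelium-like cells the direction was not stable: the ratio was 0.631 (0.544 to 0.734) in all cells, but the log2 ratio was 0.65 in cells of 800 to 2000 UMIs. Endothelial cell-like cells had 2.40 (2.33 to 2.48), but 1.56 (1.46 to 1.65) within a cluster of 255 and 909 cells. These cells lay mostly in different clusters, with 1347 NeuroD1 and 45 GFP cells in another. Microglia-like cells had 2.11 (2.06 to 2.17), but 1.27 and 1.01 within their 2 shared clusters, neither past 1.5-fold. The neuron-like ratio of 2.79 (2.27 to 3.46) was 1.27 in the shared cluster led by Reln, while a second cluster, led by Thy1 and Slc17a7, held 7 NeuroD1 and 123 GFP cells. In smooth muscle cell-like cells, a single cluster, Hspa1a was 1.64-fold lower in the NeuroD1 library, a ratio of 0.609 (0.576 to 0.644); with called doublets kept the log2 ratio was -0.57 and no longer past 1.5-fold.

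The astrocyte-like level of Hspa1a lay below an estimate of free RNA. It was 2.01-fold lower in the NeuroD1 library. With Ttr as a tracer of RNA from other cells, free RNA was estimated at 166.3 and 146.6 CPM, above the 57.5 and 115.5 CPM measured. Free RNA cannot exceed the measured level, so the estimate was too high for Hspa1a here. Its error in other classes is not known. In the 3 astrocyte-like clusters that both libraries filled, the ratio was 0.794 (0.599 to 1.05), 0.557 (0.364 to 0.823) and 0.832 (0.444 to 1.76), so it passed 1.5-fold in 1 of them. The same estimate gave 168.1 and 141.5 CPM in endothelial cell-like cells, 132.7 and 136.7 CPM in oligodendrocyte-like and 130.2 and 201.4 CPM in neuron-like cells. With that estimate subtracted, the log2 ratio of Hspa1a went from 1.53 to 2.15 in oligodendrocyte-like and from 1.48 to 2.20 in neuron-like cells. The subtraction may take away too much, so the size of this change is uncertain. Hspa1b, the close copy, was higher in pericyte-like (750.1 and 152.1 CPM, ratio 4.93), oligodendrocyte-like (2.48), endothelial cell-like (2.23) and microglia-like cells (1.54) and lower in smooth muscle cell-like (0.484) and astrocyte-like cells (0.354), the same side as Hspa1a in each. In the 2 shared microglia-like clusters its ratio was on the other side, at 0.697 (0.614 to 0.791) and 0.663 (0.536 to 0.828). Its astrocyte-like level in the NeuroD1 library, 9.59 CPM, was below the free RNA estimate of 16.5 CPM.

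**Figure D3:**
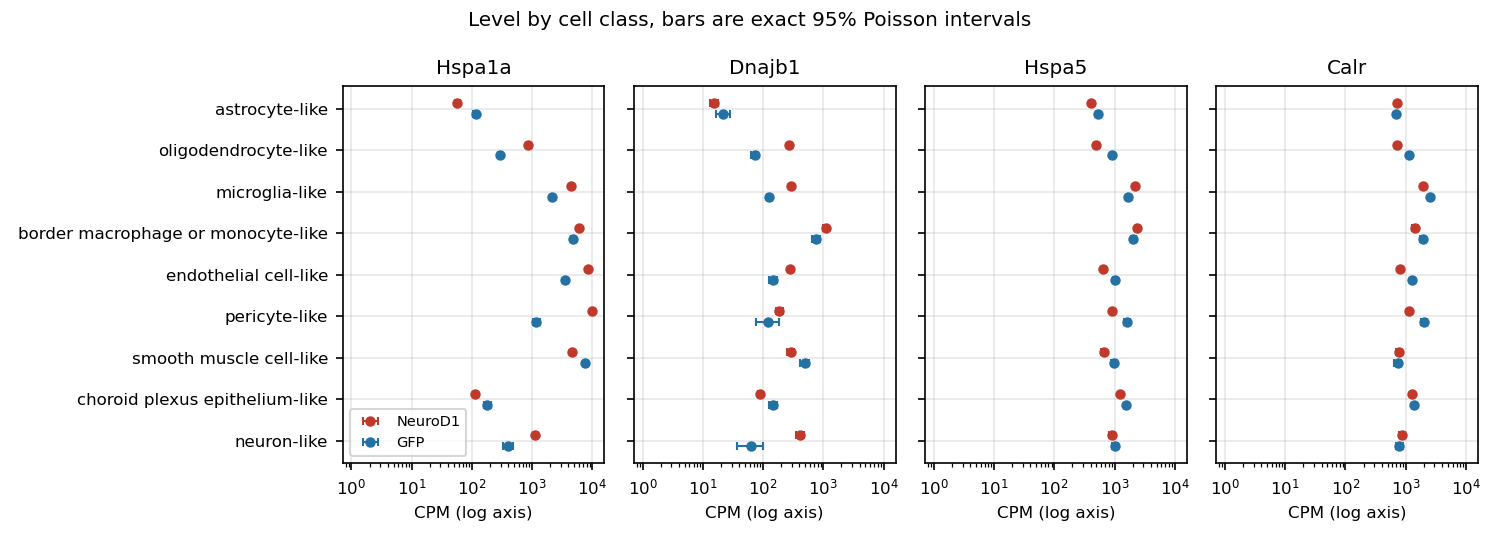
CPM on a log axis of Hspa1a, Dnajb1, Hspa5 and Calr in the 9 classes, NeuroD1 library in red and GFP library in blue, with exact 95% Poisson intervals. Hspa1a in pericyte-like cells lies at 9850 and 1168 CPM, while Hspa5 and Calr there lie lower in the NeuroD1 library.

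Hspa8, the HSP70 made all the time, varied less. It was highest in border macrophage or monocyte-like cells, at 1694 and 1378 CPM, and lowest in astrocyte-like cells, at 316.4 and 499.6 CPM. It was past 1.5-fold in 3 classes, with ratios of 0.633 in astrocyte-like, 0.620 in choroid plexus epithelium-like and 1.55 in neuron-like cells, and each of these fell inside 1.5-fold when ratios were centred on the median of all genes. In the shared neuron-like cluster the ratio of Hspa8 was 0.886 (0.704 to 1.12), on the other side of 1. Hsph1, a nucleotide exchange factor of HSP70, was lower in pericyte-like (28.9 and 65.2 CPM, ratio 0.443) and neuron-like cells (124.6 and 309.5 CPM, ratio 0.403). In the shared neuron-like cluster its log2 ratio was 0.09.

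Hspb1, a small heat shock protein that holds unfolding proteins, marked the vessel wall. It was at 3545 and 1906 CPM in endothelial cell-like cells, 2496 and 1054 in pericyte-like cells and 3269 and 5155 in smooth muscle cell-like cells. In the other 6 classes it lay between 20.6 and 138.4 CPM. Fibroblast-like cells, which were not compared, had Hspb1 at 891.5 CPM in the NeuroD1 library (118 cells) and 64 UMIs of it in 28 GFP cells. Its ratio was 2.37 (2.05 to 2.75) in pericyte-like, 1.86 (1.78 to 1.94) in endothelial cell-like and 0.634 (0.593 to 0.678) in smooth muscle cell-like cells, the last inside 1.5-fold (-0.46 on the log2 scale) with called doublets kept. Within the shared endothelial cell-like cluster it was 1.30, inside 1.5-fold, and within the shared pericyte-like cluster 2.03.

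Dnajb1 is an HSP40, which hands clients to HSP70. Border macrophage or monocyte-like cells had its highest level, 1094 and 757.1 CPM, and astrocyte-like cells its lowest, 15.5 and 21.7 CPM. It was 264.8 and 72.2 CPM in oligodendrocyte-like cells, a ratio of 3.67 (3.21 to 4.20), and the ratio was 3.78 and 2.65 within their 2 shared clusters. In neuron-like cells it was 412.3 and 63.3 CPM, a ratio of 6.51 (4.01 to 11.2), and 2.79 (1.62 to 5.20) in the shared cluster. Oligodendrocyte-like cells thus differed in Dnajb1 within clusters as well as between them. The microglia-like ratio of 2.34 became 1.26 and 0.683 in the shared clusters, and the endothelial cell-like ratio of 1.92 became 1.37, with a log2 ratio of -0.12 when called doublets were kept. Smooth muscle cell-like cells had 286.0 and 490.1 CPM, a ratio of 0.584 (0.467 to 0.731). Other HSP40 genes were less uniform: Dnajb4 was higher in 4 classes, with ratios of 2.79 in smooth muscle cell-like and 2.53 in neuron-like cells, and Dnajb6 was higher in 1 class and lower in 2.

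The HSP90 genes, whose proteins mature kinases and receptors, had smaller ratios in whole classes than in some shared clusters. Hsp90ab1 was highest of the 9 classes in neuron-like cells, at 3310 and 2230 CPM. Its ratio stayed inside 1.5-fold in each of them, although it reached 1.48 in neuron-like and 1.46 in pericyte-like cells. In the shared neuron-like cluster it was 1.53 (1.31 to 1.78). Hsp90aa1 was at 1053 and 1055 CPM in neuron-like cells and past 1.5-fold only in microglia-like cells, at 500.8 and 256.4 CPM. In the 2 shared microglia-like clusters its ratio was 0.956 (0.787 to 1.16) and 0.708 (0.572 to 0.886), inside 1.5-fold. It passed 1.5-fold in both shared oligodendrocyte-like clusters (1.60, 1.45 to 1.75, and 1.59, 1.41 to 1.79), in the shared pericyte-like cluster (1.79, 1.24 to 2.66) and in the shared neuron-like one (1.63, 1.22 to 2.22). Among the partners of HSP70 and HSP90, Chordc1 was higher in microglia-like cells (76.1 and 26.8 CPM, ratio 2.84, 2.29 to 3.52). It was also higher in smooth muscle cell-like cells (78.8 and 17.6 CPM), where the ratio of 4.47 had a wide interval, from 1.80 to 14.3. Bag3, which links HSP70 to autophagy, was higher in microglia-like (2.78) and neuron-like cells (2.68). Within shared clusters Bag3 was called in neither class, with ratios of 1.31 (0.707 to 2.50) and 0.893 (0.509 to 1.71) in microglia-like and 1.31 (0.449 to 5.19) in neuron-like cells.

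Hspa5 encodes BiP, the HSP70 of the ER. Border macrophage or monocyte-like cells had its highest level, 2388 and 2036 CPM, followed in the NeuroD1 library by microglia-like cells (2148 and 1674 CPM), and astrocyte-like cells its lowest, 413.3 and 526.4 CPM. It was lower in the NeuroD1 library in 4 classes. Oligodendrocyte-like cells had 483.5 and 903.1 CPM, a ratio of 0.535 (0.512 to 0.560). The ratio was 0.573 (0.504 to 0.653) in pericyte-like, 0.641 (0.6002 to 0.685) in endothelial cell-like and 0.665 (0.572 to 0.774) in smooth muscle cell-like cells. Within shared clusters it was 0.479 and 0.577 in oligodendrocyte-like, 0.607 in endothelial cell-like and 0.683 in pericyte-like cells, the last inside 1.5-fold. The oligodendrocyte-like log2 ratio of Hspa5 lay between -1.06 and -0.84 across 13 other ways of processing. In smooth muscle cell-like cells the log2 ratio was -0.50 with each cell thinned to 500 UMIs, also inside 1.5-fold.

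Calr encodes calreticulin, a chaperone of glycoproteins and a calcium store. It was lower in 3 classes where Hspa5 was also lower. The levels were 728.5 and 1115 CPM in oligodendrocyte-like (ratio 0.653, 0.628 to 0.680), 818.2 and 1289 in endothelial cell-like (0.635, 0.599 to 0.674) and 1144 and 2015 in pericyte-like cells (0.568, 0.506 to 0.638). The oligodendrocyte-like and endothelial cell-like ratios fell inside 1.5-fold with cells thinned to 500 UMIs, at -0.56 and -0.57 on the log2 scale. Hspa1a and Hspa5 were thus on opposite sides in oligodendrocyte-like, endothelial cell-like and pericyte-like cells and on the same side in smooth muscle cell-like cells. Other ER genes with the same promoter element did not pass: Canx, the membrane-bound relative of Calr, had ratios of 0.946, 0.916 and 1.10 in oligodendrocyte-like, endothelial cell-like and pericyte-like cells, and Hsp90b1, the HSP90 of the ER, 0.973, 1.07 and 0.995.

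Herpud1, which takes part in the removal of misfolded ER proteins, was the ER gene with the highest ratio. It was at 544.8 and 152.6 CPM in microglia-like cells, a ratio of 3.57 (3.28 to 3.89). Within the shared clusters the levels were 716.9 and 761.0 CPM (0.942, 0.752 to 1.20) and 209.3 and 220.3 CPM (0.950, 0.758 to 1.19). The first of these clusters, led by Il1a and Tnf, held 638 NeuroD1 and 63 GFP cells, and the second 565 and 706. Most GFP cells lay in 3 other clusters of 1277, 1293 and 849 GFP cells, where Herpud1 was at 75.0, 206.2 and 75.9 CPM. Herpud1 was also higher in neuron-like cells, at 163.1 and 56.3 CPM, and 1.53 (0.782 to 3.32) in the shared cluster. Dnajb9, an HSP40 of the ER, was higher in border macrophage or monocyte-like cells (203.2 and 79.9 CPM, ratio 2.54) and in microglia-like cells (146.3 and 62.6 CPM, ratio 2.34).

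Mitochondrial chaperones passed in neuron-like cells alone. Hspe1 and Hspd1, which form the folding chamber of the matrix, had ratios of 2.88 (323.9 and 112.5 CPM) and 1.69 (314.9 and 186.4 CPM) there. Within the shared neuron-like cluster Hspe1 was inside 1.5-fold. Hspa9, the mitochondrial HSP70, was highest of the 9 classes in astrocyte-like cells, at 214.6 and 208.7 CPM, and passed in none of them.

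Among the regulators, Atf4, the transcription factor of the integrated stress response, was higher in 5 classes. Its levels were 114.2 and 49.3 CPM in microglia-like, 43.8 and 22.2 in oligodendrocyte-like, 102.8 and 51.7 in border macrophage or monocyte-like, 103.6 and 45.8 in smooth muscle cell-like and 68.4 and 21.7 in pericyte-like cells. The pericyte-like ratio of 3.15 had an interval from 1.19 to 11.8. In cells of 800 to 2000 UMIs its log2 ratio was 0.60, no longer called, and the smooth muscle cell-like one was 0.77 and no longer called when cells were thinned to 500 UMIs. In the 2 shared microglia-like clusters the ratio of Atf4 was 1.99 (1.27 to 3.21) and 0.876 (0.527 to 1.56). Atf4 is also controlled through translation, which these counts do not measure. Ddit3, which encodes CHOP, was higher in microglia-like cells alone, at 68.2 and 40.7 CPM, but was called in neither shared cluster there, with ratios of 1.80 (0.997 to 3.40) and 0.662 (0.374 to 1.28). Trib3, a target of both, was lower in endothelial cell-like cells, at 15.7 and 24.8 CPM.

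Genes of the same pathways outside the 38 were counted from lists. Of 20 other integrated stress response genes, 10 of 17 tested were higher and 1 lower in microglia-like cells, where 31.1% of all genes were higher and 13.7% lower. In astrocyte-like cells 1 of 18 was higher and 10 lower, against 5.85% and 20.7%. Other ER folding, degradation and sensor genes gave 8 higher and 0 lower of 28 in endothelial cell-like cells, against 13.8% and 8.55%, while Hspa5 and Calr were lower there. Other cytosolic chaperones and heat shock factors gave 12 higher and 1 lower of 30 in neuron-like cells, against 24.6% and 18.8%. In choroid plexus epithelium-like cells they gave 1 higher and 8 lower of 34, against 2.21% and 20.1%, so the lower ones were near the share of all genes.

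Cells of a class were uneven in Hspa1a. In oligodendrocyte-like cells 50% of its UMIs came from 138 of 3153 cells (4.38%) of the NeuroD1 library and from 51 of 2276 cells (2.24%) of the GFP library. These shares are without thinning, at median depths of 2939 and 1277 UMIs. For Hspa5, also without thinning, the shares were 16.4% and 13.3% of the cells. With every cell thinned to 500 UMIs, 74.1% (70.7 to 77.3, exact binomial) of NeuroD1 pericyte-like cells and 25.0% (19.97 to 30.6) of GFP ones had an Hspa1a UMI. The shares before thinning were 82.9% and 30.1%. In astrocyte-like cells, where the level was within the free RNA estimate, the thinned shares were 3.21% and 5.23%, and the median depths were 2311 and 1147 UMIs.

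At that equal depth, cells with an Hspa1a UMI also had more of some cytosolic genes, and the ER genes followed little. The cells were chosen by Hspa1a here, and Hspa1b may share its reads. In oligodendrocyte-like cells Dnajb1 was at 809.6 CPM in the 566 cells with Hspa1a and 146.9 CPM in the 2587 without, a ratio of 5.51 (4.53 to 6.72), in the NeuroD1 library. In the GFP library the ratio was 6.97 (4.33 to 11.1). Hspa5 had ratios of 1.07 (0.889 to 1.29) and 0.915 (0.714 to 1.16) and Calr 0.975 and 1.12. Dnajb1 thus went with Hspa1a cell by cell in both libraries, at similar ratios. In endothelial cell-like cells Dnajb1 had ratios of 2.75 and 3.23 and Hspb1 2.24 and 1.76, against 1.08 and 1.25 for Hspa5. In microglia-like cells Hsp90aa1 also took part, with 2.62 and 2.10. Cldn5, an endothelial marker, was at 24.9 and 10.1 CPM in oligodendrocyte-like cells with and without Hspa1a in the NeuroD1 library. The ratio was 2.47 (0.836 to 6.67), and endothelial cell-like cells had 3004 and 3222 CPM. In NeuroD1 astrocyte-like cells Cldn5 was at 145.8 and 12.7 CPM, a ratio of 11.5 (4.41 to 27.1, from 8 and 21 UMIs). GFP astrocyte-like cells had 0 and 12 UMIs of Cldn5. In pericyte-like cells with Hspa1a, Cldn5 was 2.25-fold higher (510.2 and 227.0 CPM) in the NeuroD1 library. In GFP pericyte-like cells it was at 29.5 and 29.4 CPM, from 1 and 3 UMIs. NeuroD1 pericyte-like cells thus held more Cldn5 RNA, with or without an Hspa1a UMI. The part of RNA from other cells in the result was not tested.

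**Figure D4:**
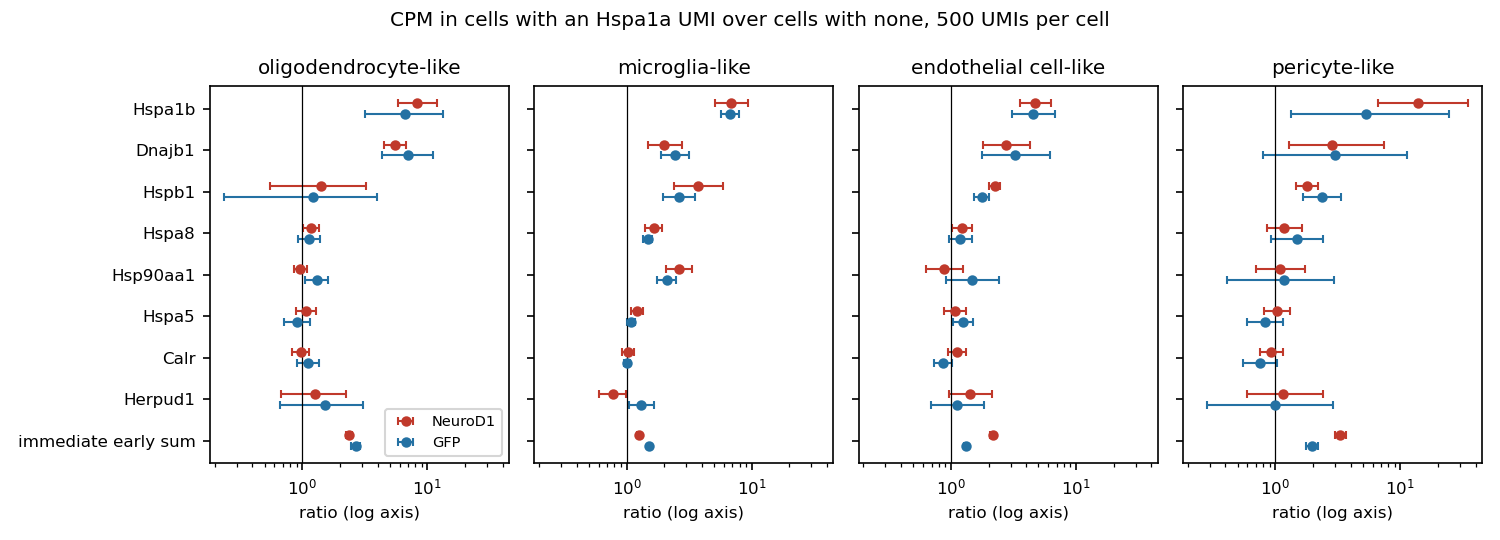
CPM ratio (log axis, 95% intervals) of cells with an Hspa1a UMI over cells with none in 4 classes, all cells thinned to 500 UMIs, NeuroD1 library in red and GFP library in blue. Hspa1b and Dnajb1 lie to the right of 1 in each class, with Dnajb1 in oligodendrocyte-like cells at 5.51 and 6.97, and Hspa5 and Calr lie near 1.

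Immediate early genes, such as Fos and Jun, were high in clusters where Hspa1a was high. Over clusters of at least 50 cells, the log2 level of Hspa1a and that of the summed immediate early genes had Pearson r = 0.88 and Spearman rho = 0.79 over 24 NeuroD1 clusters, and 0.97 and 0.95 over 20 GFP clusters. For Hspa5 with the same sum r was 0.66 and 0.73, for Hspa1a with Hspa5 0.52 and 0.67, and for Hspa1a with the ER sum 0.38 and 0.40. The clusters of a library share its preparation and depth, so these values are descriptions. In oligodendrocyte-like cells the immediate early sum was 2.38-fold and 2.67-fold higher in cells with an Hspa1a UMI. This did not hold in every class: the ratio was 0.823 (0.769 to 0.880) and 1.77 in smooth muscle cell-like, 1.03 (0.884 to 1.20) and 1.98 in neuron-like and 1.28 (0.969 to 1.65) and 1.13 (0.887 to 1.41) in astrocyte-like cells, NeuroD1 library first. Between libraries the list was higher for 19 and lower for 1 of 22 genes tested in microglia-like cells, against 31.1% and 13.7% of all genes, and higher for 11 and lower for 1 of 18 in neuron-like cells, against 24.6% and 18.8%. It was higher for 0 and lower for 10 of 18 genes in astrocyte-like cells, against 5.85% and 20.7%, and higher for 0 and lower for 15 of 19 in choroid plexus epithelium-like cells, against 2.21% and 20.1%. In pericyte-like cells the summed level was 11977 and 9735 CPM, and 7 of 17 genes were higher and 2 lower, against 9.25% and 8.02%. In endothelial cell-like cells 4 of 22 were higher and 10 lower, against 13.8% and 8.55%, while Hspa1a was higher there. The part of these genes in the chaperone differences was not tested.

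**Figure D5:**
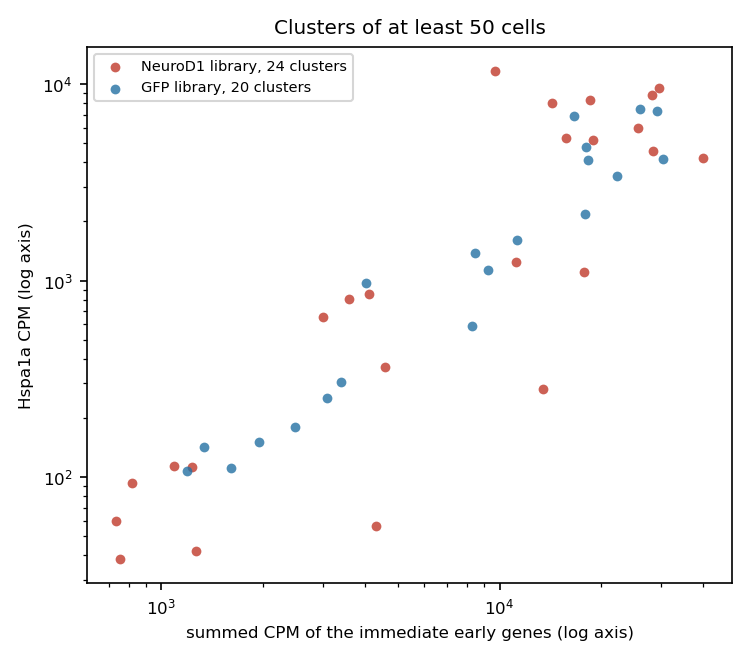
Hspa1a CPM against the summed CPM of the immediate early genes, both on log axes, 1 point per cluster of at least 50 cells, NeuroD1 library in red (24 clusters) and GFP library in blue (20 clusters). Points rise together in both libraries, with r of 0.88 and 0.97 on the log2 scale.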

How the data were processed

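The deposited tables hold raw UMI counts per gene and cell barcode for 2 libraries, and the authors' file headers give no normalization. Per the submitters' processing notes, FastQC, fastp, cutadapt, STAR and featureCounts were used with mm39; their roles, versions and annotation release are not given in the sources used here. Labels describe microwell chips, and another label names a droplet platform. Barcodes had at least 500 UMIs. Cells with under 200 genes or over 20% mitochondrial UMIs were removed (131 and 104), then 487 and 553 doublets called with scanpy 1.11.5. Cells were scaled to 10000 UMIs and clustered (3000 variable genes without the 38 genes and the related lists, 30 components, 15 neighbours, Leiden resolution 1.0). A cluster was named from at least 3 markers among its 50 leading genes. UMIs were summed per class and library; CPM have exact Poisson intervals and ratios exact conditional intervals (scipy 1.17.1), tested on simulated data. Log2 ratios use a prior of 0.5 UMI. Named genes were those past 1.5-fold with at least 50 UMIs in 1 sum, up to 4 each way by the interval end nearest 1, the 3 highest by CPM per class, and a set named in every class (Hspa1a, Hspa1b, Hspa8, Hsp90aa1, Hspa5, Calr, Atf4, Ddit3); Canx, Hsp90b1, Hsp90ab1, Hspa9, Hspd1, Dnajb4, Dnajb6, Hsph1 and Sdf2l1 were partly named after their values were seen. The comparison of cells with and without an Hspa1a UMI was added after seeing the data. The members and lists were chosen with earlier results of these data known. Coordinates are those of RefSeq on GRCm38.p6, not of mm39.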

Additional observations from a re-analysis of the deposited data

Results flagged for a closer look

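For 7 of the 38 genes the libraries differed past 1.5-fold in opposite directions in 2 or more classes, and the difference between classes was not tested. The share of all genes with such opposite calls was not counted, so this count cannot be read as particular to these genes. The values are log2 ratios, NeuroD1 over GFP library, for the highest and the lowest class of each gene. Hspa1a was at 3.07 in pericyte-like and -1.01 in astrocyte-like cells, and Hspa1b at 2.28 and -1.50 in the same classes. The astrocyte-like levels of both genes in the NeuroD1 library lay below the free RNA estimate. Hspb1 was at 1.24 in pericyte-like and -0.66 in smooth muscle cell-like cells, the latter at -0.46 and inside 1.5-fold with called doublets kept. Dnajb1 was at 2.67 in neuron-like and -0.78 in smooth muscle cell-like cells, and Dnajb6 at 0.59 and -0.91 in those classes. Hspa8 was at 0.63 in neuron-like and -0.69 in choroid plexus epithelium-like cells. Within the shared neuron-like cluster Hspa8 was at -0.18. Hspa4l was at 1.18 in endothelial cell-like and -2.28 in microglia-like cells, where it had 2.38 and 12.4 CPM.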

How the results depend on the processing

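No paired analysis was possible because each group is 1 library, both numbered replicate 1, so the groups share fewer than 2 numbers; for the same reason no replicate could be left out. Over the alternatives tried, 326 group medians and their differences moved by less than the limit, 10 moved and 3 reversed. CPM levels moved more often: 214 moved and 650 counted as the same. Among the counts of called genes, 42 moved and 210 counted as the same. Of the ratios of single genes, 1076 kept their call (past the limit or not), 33 passed the limit and 68 no longer passed. A further 10 that were called changed side. A ratio that was not called could change side and still count as kept, as Calr did in astrocyte-like cells (-0.260 to 0.252). The cause was not tested. With called doublets kept, the cytosolic median in endothelial cell-like cells was -0.052 and Dnajb1 there -0.12, and in smooth muscle cell-like cells the ER median was -0.075 and the cytosolic minus ER difference -0.21. Thinned to 500 UMIs, the cytosolic median in smooth muscle cell-like cells was -0.67, and in choroid plexus epithelium-like cells the ER median was 0.40, the difference -0.59 and Dnajb1 0.23. In cells with 800 to 2000 UMIs, the ER median in smooth muscle cell-like cells was -0.23, and in choroid plexus epithelium-like cells the cytosolic median was 0.17, the ER median 0.43, Dnajb1 0.60 and Hspa1a 0.65. In that class the cytosolic and ER medians were 0.16 and 0.40 when scaled without Ttr, mitochondrial, ribosomal, haemoglobin and vector UMIs, and 0.19 and 0.42 when centred on all genes. Within 1 shared cluster, microglia-like cells had Herpud1 at -0.075, Hsp90aa1 at -0.066 and Hspa1b at -0.52, and neuron-like cells Hspa4l at 0.73, Hspa8 at -0.18 and Hsph1 at 0.09. All are on the log2 scale. With free RNA subtracted, Hspa1a in astrocyte-like cells gave no value.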

Other observations

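In classes with under 100 cells in a library, values are given without comparison. T or NK lymphocyte-like cells (59 and 126 cells) had Hspa1a at 282.1 CPM (191.7 to 400.4) in the NeuroD1 library and 6905 CPM (6463 to 7369) in the GFP library, from 31 and 909 UMIs, and Dnajb1 at 591.5 and 3608 CPM. Hspa5 was at 1620 and 1565 CPM in the same cells. Ependymal cell-like cells (35 and 7 cells) had Hsp90aa1 at 3831 and 2954 CPM. An unnamed cluster led by Gkn3, Bmx and Sema3g (322 and 79 cells) had Hspa1a at 8849 and 7265 CPM, Hspb1 at 4399 and 3736 CPM and Hspa5 at 822.5 and 1455 CPM.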
